A study of Homo sapiens with 16 samples.

Results

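Chromatin accessibility was examined at 43 genes of DNA damage signalling and break repair in Cal33 and SAS, established lines grown from squamous carcinomas of the head and neck that are negative for HPV. The members are all peaks whose nearest annotated promoter belongs to one of these genes, 126 of the 164980 peaks counted in every library. By this rule 36 of the 43 genes hold a peak, with at most 13 peaks per gene, and BRCA2, BARD1, XRCC6, MDC1, EXO1, WRN and TOPBP1 hold none. Of the 126 peaks, 29 are in the promoter-TSS class of the authors' annotation, 74 in introns, 14 between genes, 5 at transcript ends and 4 in exons.

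Accessibility was measured by ATAC-seq, in which a transposase cuts open DNA and the cut fragments are sequenced. The groups were Cal33 cells with siRNA against ITGA7 (Cal33 siITGA7), Cal33 cells with a non-targeting siRNA (Cal33 siControl), SAS siITGA7 and SAS siControl, with 4 biological replicates each. ITGA7 encodes a laminin-binding integrin chain. All groups were embedded in laminin-rich matrix 24 h after transfection and their nuclei were taken at 48 h, and the labels state no irradiation or drug. Whether the knockdown worked cannot be read from peaks, since siRNA acts on the transcript.

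The distances in the annotation run from 1 start per gene, and for 17 of the 43 genes that start lies over 10 kb from the RefSeq gene start. The promoter-TSS class also takes in peaks far from that start, as at NBN and RIF1. The peaks that overlap a RefSeq start of a repair gene were therefore taken as well and are called start peaks here. There were 48 of them, and every gene had at least 1. Of these, 21 carry the gene's own identifier and 27 that of a neighbour, as at ATM (annotated to NPAT), PRKDC (MCM4), BRCA2 (ZAR1L), NHEJ1 (SLC23A3) and DCLRE1C (MEIG1). At some of these the start of the neighbour lies within the peak or close to it, as at ATM, BRCA2, MDC1, XRCC4 and BARD1. There the counts cannot be divided between the genes. At others it lies further off, 9512 bases from the peak of NHEJ1 and 11152 from that of BRIP1, and the peaks overlap the starts of NHEJ1 and BRIP1 themselves. BRCA1, LIG4, MRE11, RAD52 and RBBP8 have 2 start peaks each.

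Cells answer a broken DNA end in steps. The MRE11 complex binds the end and activates the kinase ATM, while ATR responds to single-stranded DNA, and both act through the checkpoint kinases CHEK2 and CHEK1. Mediators such as MDC1 and the ubiquitin ligases RNF8 and RNF168 then mark the surrounding chromatin, and TP53BP1 or BRCA1 steer the end to direct joining or to copying from the sister chromatid. Repair capacity is one determinant of how carcinoma cells withstand radiation.

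Promoter sequences are shown for the 3 start peaks with the largest falls after siITGA7 in each line, XRCC3, MDC1 and BRCA1 in Cal33 and XRCC4, CHEK1 and BARD1 in SAS. Each is the 250 bases before the RefSeq start (GRCh38.p14), 5′ to 3′ on the gene's own strand. The windows are chr14:103715452-103715701 (minus strand) for XRCC3, chr6:30717282-30717531 (minus strand) for MDC1 and chr17:43125365-43125614 (minus strand) for BRCA1. They are chr5:83077297-83077546 (plus strand) for XRCC4, chr11:125625974-125626223 (plus strand) for CHEK1 and chr2:214809684-214809933 (minus strand) for BARD1. Capitals mark matches to CCAAT (the NF-Y box), GGGCGG (the GC box) and CCGGAAG (an ETS core), on either strand.

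XRCC3: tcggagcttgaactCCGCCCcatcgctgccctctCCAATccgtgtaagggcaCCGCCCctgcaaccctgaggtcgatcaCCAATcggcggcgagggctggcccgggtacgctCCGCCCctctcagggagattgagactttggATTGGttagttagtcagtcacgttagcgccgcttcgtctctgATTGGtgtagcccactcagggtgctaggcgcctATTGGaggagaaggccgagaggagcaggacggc

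MDC1: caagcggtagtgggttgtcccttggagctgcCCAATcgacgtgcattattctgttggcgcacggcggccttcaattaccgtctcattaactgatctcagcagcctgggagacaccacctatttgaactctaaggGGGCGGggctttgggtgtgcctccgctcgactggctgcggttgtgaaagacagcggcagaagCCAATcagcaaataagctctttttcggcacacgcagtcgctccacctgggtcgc

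BRCA1: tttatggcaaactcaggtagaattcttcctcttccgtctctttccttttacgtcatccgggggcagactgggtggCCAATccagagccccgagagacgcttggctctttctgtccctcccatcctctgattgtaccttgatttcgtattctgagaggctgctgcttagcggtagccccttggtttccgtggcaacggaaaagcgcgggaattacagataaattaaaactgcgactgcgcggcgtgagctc

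XRCC4: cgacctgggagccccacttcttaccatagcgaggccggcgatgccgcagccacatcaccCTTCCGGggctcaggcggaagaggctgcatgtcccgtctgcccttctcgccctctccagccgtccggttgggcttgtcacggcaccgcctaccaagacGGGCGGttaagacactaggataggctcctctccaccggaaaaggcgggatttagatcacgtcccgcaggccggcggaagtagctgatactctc

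CHEK1: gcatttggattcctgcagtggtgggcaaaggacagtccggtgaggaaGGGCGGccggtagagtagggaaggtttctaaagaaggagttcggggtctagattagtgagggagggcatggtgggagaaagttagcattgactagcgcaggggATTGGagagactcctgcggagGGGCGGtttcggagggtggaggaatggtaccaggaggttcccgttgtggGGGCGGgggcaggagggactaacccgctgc

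BARD1: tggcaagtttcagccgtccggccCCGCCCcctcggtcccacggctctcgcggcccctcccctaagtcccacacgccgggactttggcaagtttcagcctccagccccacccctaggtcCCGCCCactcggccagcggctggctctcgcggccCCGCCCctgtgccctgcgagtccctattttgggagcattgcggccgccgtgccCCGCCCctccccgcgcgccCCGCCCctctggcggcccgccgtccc

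RefSeq promoters were matched for 38 of the 43 genes, and not for FANCI, PRKDC, NBN, WRN and XRCC5. In XRCC3 the script found 8 matches, 5 to CCAAT and 3 to GGGCGG, and in BARD1 5 matches, each to GGGCGG. In the 38 genes, GGGCGG occurred in 30, against 46.2% of all 27305 genes with a window, and CCGGAAG in 14, against 10.2%. CCAAT occurred in 19 genes, against 37.0% of all genes. Of the 13 genes with a start peak called in either line, 10 had CCAAT, 12 had GGGCGG and 4 had CCGGAAG. A match may lie in a window other than that of the called start. At BRCA1 the GGGCGG match lies outside the window shown above. The other motifs searched were rare: TGACGTCA occurred in 4 genes (2.03% of all), GCGCATGC in 3 (3.22%), TATAAA in 2 (13.05%), TTTCCCGC in 1 (1.70%) and TTTGGCGC in 0 (0.681%). These are matches of letters, counted once per gene over all its windows, both strands, whether or not matches overlap.

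Depth and the weight of promoters differed between the groups. Total counts in peaks were 8646532 to 13285086 in Cal33 siITGA7 and 3980563 to 8367079 in Cal33 siControl, and 758590 to 1867047 in SAS siITGA7 and 1766033 to 4870187 in SAS siControl. All promoter-TSS peaks together took 41.02% ± 0.787 of the counts in Cal33 siITGA7 and 44.3% ± 3.07 in Cal33 siControl (SD, n = 4 each). They took 30.1% ± 0.364 in SAS siITGA7 and 33.7% ± 0.422 in SAS siControl. A start peak held 22 to 1182 counts per library in Cal33 siITGA7, 13 to 977 in Cal33 siControl, 3 to 134 in SAS siITGA7 and 13 to 367 in SAS siControl. Of 8 squamous markers 5 had a peak at their start, and on scales taken within each line their levels did not order the lines alike. Differences between the lines as small as those at DSG3 and PKP1 may turn on a common scale, which was not used for the markers. KRT5 had 70.3 CPM per kb in Cal33 siControl and 22.0 in SAS siControl, while TP63 had 0.717 and 4.91, CDH1 6.59 and 16.7, DSG3 10.2 and 12.3, and PKP1 12.9 and 14.3 in the same groups. CPM stands for counts in a peak per 1e6 counts in the tested peaks of the library, with library sizes scaled by edgeR's TMM factors. The scaling was done within each line. CPM given beside a log2 difference between the lines were instead scaled over all 16 libraries. KRT14, KRT6A and EPCAM had none, nor had any of 6 fibroblast and 5 blood markers, and of 5 endothelial markers VWF alone had a start peak.

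After siITGA7 most start peaks of the repair genes had a lower level relative to library size in both lines, less widely so with promoter scaling, and the peaks that passed the test were different ones in each. A peak is called here where edgeR's quasi-likelihood test gave an adjusted p under 0.05 over all tested peaks. In Cal33, 7 of 48 start peaks fell (14.6%) and 0 rose, at XRCC3, MDC1, BRCA1, CHEK2, DCLRE1C, BRIP1 and BLM. Over all peaks tested in Cal33 4.67% were called lower, and over promoter-TSS peaks 9.93%, while 4.52% of all and 1.73% of promoter-TSS peaks were called higher. In SAS, 6 of 48 fell (12.5%) and 0 rose, at XRCC4, CHEK1, BARD1, MRE11, ATM and NHEJ1. There 2.99% of all tested peaks and 7.28% of promoter-TSS peaks were called lower, and 4.04% of all and 1.42% of promoter-TSS peaks higher. Both shares at the repair genes thus stand above, but not far from, those of promoters in general.

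By the nearest-promoter rule alone the counts were smaller. In Cal33 52 of the 126 peaks had enough counts to be tested and 4 fell, BRCA1, CHEK2, XRCC3 and BLM, all among the 19 tested promoter-TSS peaks. This count of 4 was 8 without siControl replicate 3, and 2 without siControl replicate 1 or 2 or any of siITGA7 replicates 2 to 4. In SAS 31 were tested and 2 fell, CHEK1 and MRE11, also among 19 promoter-TSS peaks. None of the tested peaks outside the promoter-TSS class was called, 33 in Cal33 and 12 in SAS, where 3 had an unadjusted p under 0.05 in each line. Outside promoters 5.19% of all peaks were called higher and 3.4% lower in Cal33, and 5.07% and 1.32% in SAS.

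The median log2 change of the 48 start peaks was -0.17 in Cal33, against -0.12 over all tested promoter-TSS peaks, and -0.29 in SAS, against -0.14. Of the 48, 40 lay below 0 in Cal33 and 41 in SAS, and 34 in both. How many of all promoter-TSS peaks lay below 0 was not counted, though their median did so in each line. Across these peaks the changes in the lines were nearly unrelated (Pearson's r = -0.07, Spearman's rho = -0.06, n = 48 peaks, which share their libraries). All 4 siITGA7 libraries lay below all 4 siControl libraries at 7 start peaks in Cal33 and above them at 1, where 6.16% and 8.39% of all tested peaks did so. In SAS this held at 8 start peaks and at 0, against 5.61% and 5.99% of all tested peaks. The share among promoter-TSS peaks alone was not computed. Promoter-TSS peaks were called lower more often than all peaks in both lines, so these counts are not read as particular to the repair genes.

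**Figure D1:**
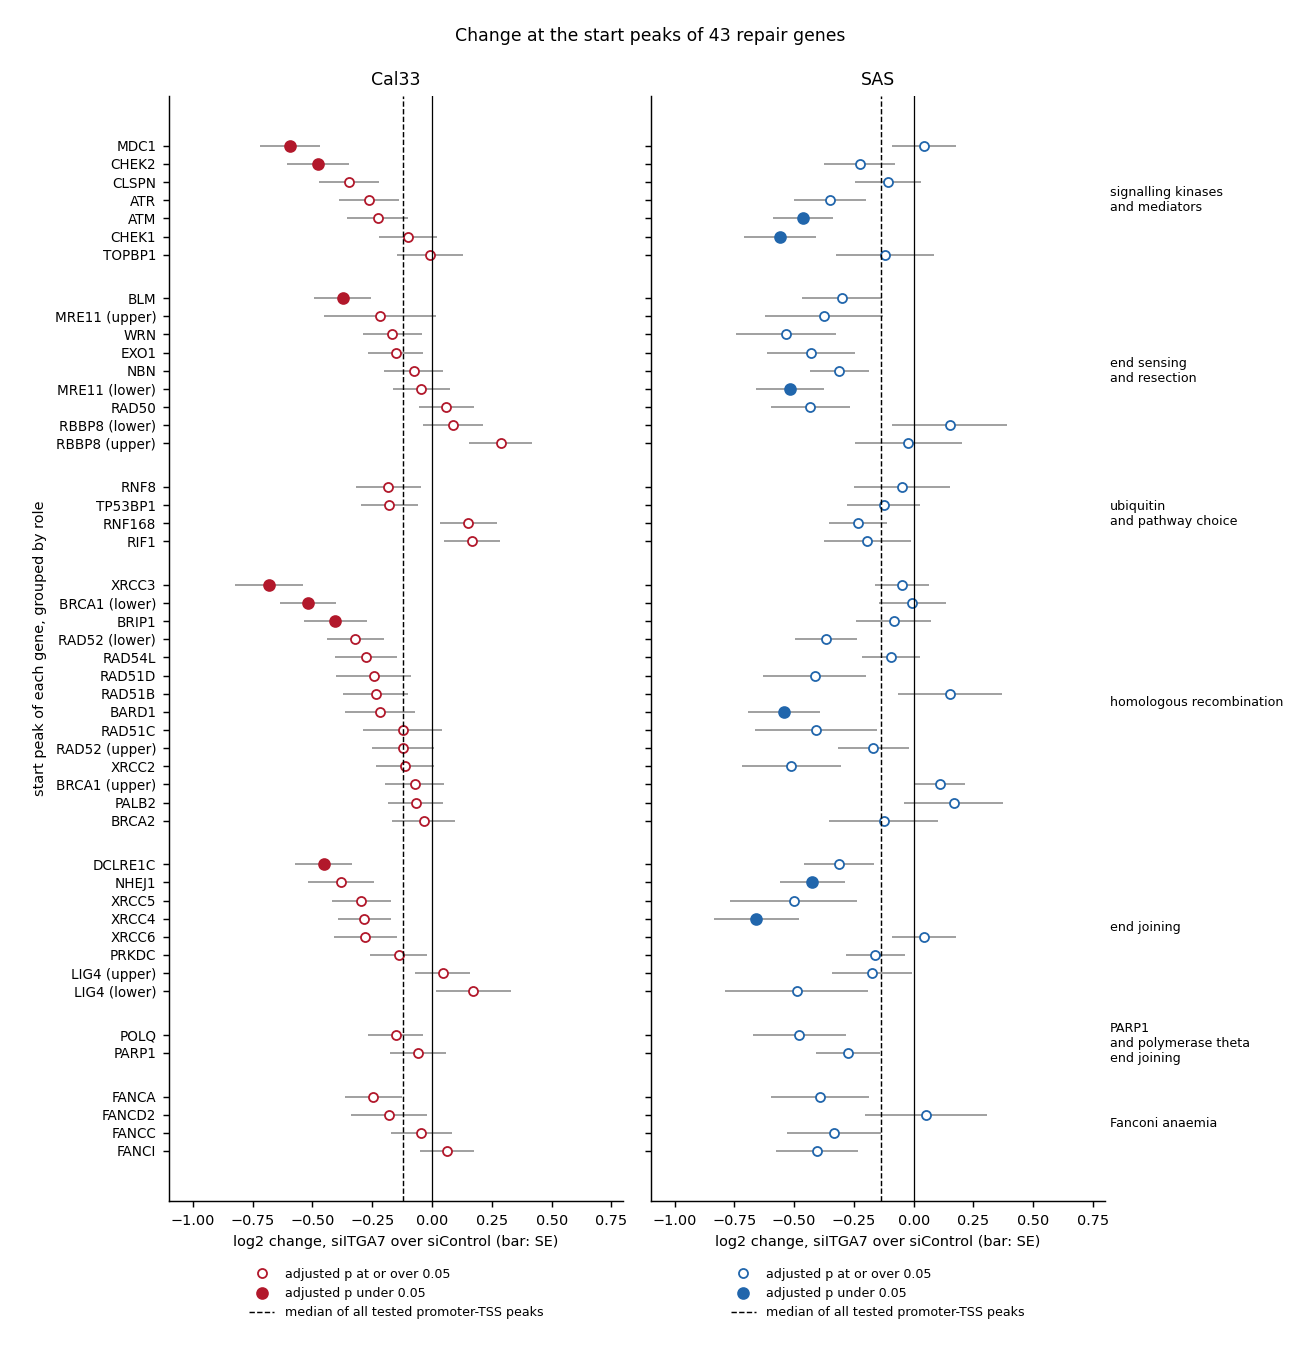
Log2 change (siITGA7 over siControl, x axis) at each start peak in Cal33 (left) and SAS (right), grouped by role, with the standard error as a bar; filled points have an adjusted p under 0.05 and the dashed line is the median of all tested promoter-TSS peaks. For genes with 2 start peaks, lower and upper name the peak with the smaller and the larger coordinate. The 7 filled points in Cal33 and the 6 in SAS all lie left of 0, at different genes.

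The counts in all 48 start peaks gave the same picture as shares of a library. They were 0.176% ± 0.00445 of the counts in Cal33 siITGA7 and 0.195% ± 0.0143 in Cal33 siControl, with overlapping libraries. In SAS they were 0.116% ± 0.00238 in siITGA7 and 0.141% ± 0.00264 in siControl (SD, n = 4), with every siITGA7 library below every siControl library. The ratio of these counts to the counts in all promoter-TSS peaks was 0.429% ± 0.00381 in Cal33 siITGA7 and 0.44% ± 0.00656 in Cal33 siControl. It was 0.386% ± 0.00903 in SAS siITGA7 and 0.417% ± 0.00328 in SAS siControl, again without overlap in SAS. Of the 48 start peaks 39 are themselves in the promoter-TSS class, 8 in introns and 1 in an exon, so the ratio is not a share of promoter-TSS counts. No test was run on these sums. In bulk libraries, fewer cells with an open promoter and less opening per cell cannot be told apart.

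**Figure D2:**
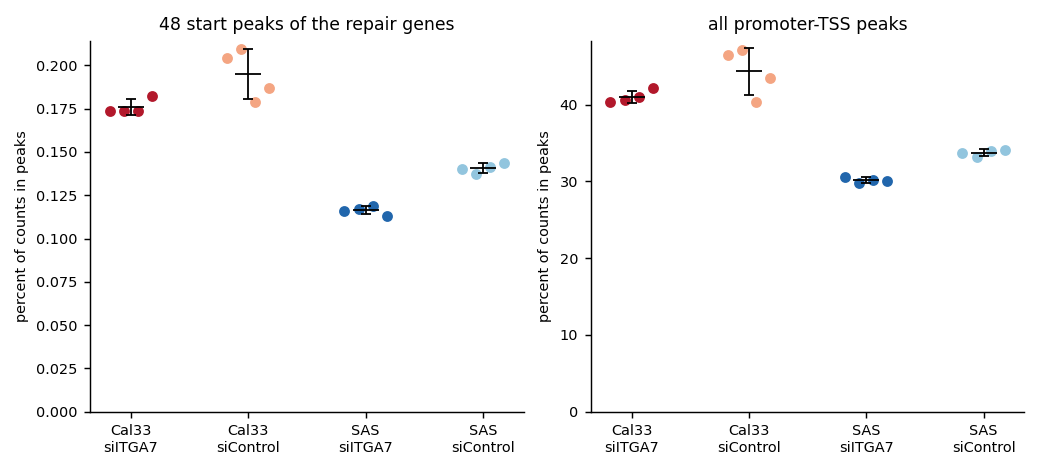
Percent of each library's counts in peaks (y axis) that fell in the 48 start peaks of the repair genes (left) and in all promoter-TSS peaks (right), 1 point per library with the mean and SD. In SAS the siITGA7 libraries lie below the siControl libraries in both panels.

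Among the signalling kinases and mediators (7 start peaks), 2 fell in each line. MDC1, the scaffold that binds phosphorylated histone at breaks, has its start peak at chromosome 6, 30717044 to 30717859 (GRCh38), shared with a neighbour's start. It held 70.2, 72.3, 72.6 and 70.4 CPM in Cal33 siITGA7, against 118, 126, 86.6 and 102 CPM in Cal33 siControl. The siITGA7 libraries lay close together and below every siControl library, and the log2 change was -0.59 ± 0.13 (SE; edgeR adjusted p = 0.00304). In SAS the same peak had 47.2, 49.7, 44.5 and 49.5 CPM in siITGA7 and 46.5, 47.7, 49.9 and 41.8 CPM in siControl, which overlap (log2 change 0.04 ± 0.13, adjusted p = 0.895).

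CHEK2, the kinase that ATM activates (chromosome 22, 28741423 to 28742727), held 48.9, 47.2, 52.0 and 47.5 CPM in Cal33 siITGA7 and 75.5, 85.2, 50.5 and 63.7 CPM in Cal33 siControl. The groups overlapped by 1 siControl library, and the log2 change was -0.48 ± 0.13 (edgeR adjusted p = 0.0188). CHEK1, the kinase downstream of ATR (chromosome 11, 125625364 to 125626898), fell in SAS. It held 33.2, 30.9, 28.9 and 32.5 CPM in SAS siITGA7 and 46.9, 47.0, 48.3 and 42.5 CPM in SAS siControl, with no overlap and a log2 change of -0.56 ± 0.15 (adjusted p = 0.00837). In Cal33 its change was -0.10 ± 0.12 (adjusted p = 0.655).

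ATM, the kinase that responds to broken ends (chromosome 11, 108221964 to 108223695), held 50.7, 51.5, 45.6 and 51.6 CPM in SAS siITGA7 and 65.6, 63.9, 67.4 and 77.5 CPM in SAS siControl. The groups did not overlap, and the log2 change was -0.46 ± 0.13 (edgeR adjusted p = 0.00934), against -0.23 ± 0.13 in Cal33 (adjusted p = 0.267). ATR had 29.7, 28.1, 40.01 and 33.9 CPM in SAS siITGA7 and 44.0, 44.1, 41.2 and 40.7 CPM in SAS siControl, without overlap but not called (log2 change -0.35 ± 0.15, adjusted p = 0.153). In Cal33 ATR changed by -0.26 ± 0.13 on the log2 scale (adjusted p = 0.183). CLSPN, an adaptor of CHEK1 activation, had a change of -0.35 ± 0.12 in Cal33 (adjusted p = 0.074). TOPBP1, an activator of ATR, had -0.01 ± 0.14 in Cal33 and -0.12 ± 0.20 in SAS.

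Among the genes of end sensing and resection (9 start peaks), 1 fell in each line. MRE11, the nuclease of the sensor complex (chromosome 11, 94493334 to 94494459), held 33.2, 27.2, 48.9 and 43.1 CPM in SAS siITGA7 and 62.3, 42.6, 51.5 and 60.7 CPM in SAS siControl. The groups overlapped, and the log2 change was -0.52 ± 0.14 (edgeR adjusted p = 0.0109), while in Cal33 it was -0.05 ± 0.12. The partners of MRE11 were not called in SAS: RAD50 had -0.43 ± 0.16 (adjusted p = 0.0949), without overlap of the groups, and NBN -0.31 ± 0.12 (adjusted p = 0.115).

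BLM, a helicase of resection and of crossover control (chromosome 15, 90716782 to 90717971), held 36.4, 33.5, 32.5 and 33.4 CPM in Cal33 siITGA7 and 49.3, 49.3, 37.4 and 41.6 CPM in Cal33 siControl. The groups did not overlap, and the log2 change was -0.37 ± 0.12 (edgeR adjusted p = 0.0382). With the replicate number as a block the adjusted p was 0.0743, so the call was lost. RBBP8, which encodes the resection factor CtIP, had the largest positive change of the 48 in Cal33, at the upper of its 2 start peaks. That peak held 16.6, 16.0, 15.4 and 18.3 CPM in Cal33 siITGA7 and 14.8, 14.3, 10.9 and 15.2 CPM in Cal33 siControl. It was the start peak at which the siITGA7 libraries all lay above, with a log2 change of 0.29 ± 0.13 that was not called (adjusted p = 0.163). WRN and EXO1 were not called in either line.

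None of the 4 start peaks of ubiquitin signalling and pathway choice was called in either line by edgeR, nor had any an unadjusted p under 0.05. TP53BP1, which shields ends from resection, held 33.7, 35.5, 34.4 and 38.6 CPM in Cal33 siITGA7 and 47.9, 41.9, 36.1 and 35.5 CPM in Cal33 siControl. Its log2 change was -0.18 ± 0.12 in Cal33 (adjusted p = 0.361) and -0.13 ± 0.15 in SAS (adjusted p = 0.698). RIF1, a partner of TP53BP1, and RNF168 had changes of 0.17 ± 0.12 and 0.15 ± 0.12 in Cal33, among the few above 0, and of -0.19 ± 0.18 and -0.23 ± 0.12 in SAS.

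Homologous recombination, the role with the most start peaks, had the most calls in Cal33, 3 of 14 (21.4%). The share was larger for signalling kinases and mediators, 2 of 7 (28.6%), and 9.93% of all promoter-TSS peaks were called lower. All 14 changes at homologous recombination lay below 0, 9 of them with TMM factors from promoters alone. At signalling kinases and mediators all 7 did, 5 of them with the promoter factors. XRCC3, a paralogue that helps load the recombinase (chromosome 14, 103715123 to 103716318), showed the largest change of all 48. It held 86.9, 90.4, 90.0 and 89.8 CPM in Cal33 siITGA7, against 157, 187, 104 and 128 CPM in Cal33 siControl. The siITGA7 libraries agreed within 4 CPM and lay below all siControl libraries (log2 change -0.68 ± 0.14, edgeR adjusted p = 0.00237). In SAS it had 96.2, 65.6, 82.2 and 72.8 CPM in siITGA7 and 77.0, 88.1, 78.7 and 77.5 CPM in siControl (log2 change -0.05 ± 0.11, adjusted p = 0.86).

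BRCA1, the resection and recombination factor, fell in Cal33 at its main start peak (chromosome 17, 43124530 to 43125965). There it held 27.9, 30.6, 28.6 and 29.4 CPM in siITGA7 and 45.9, 49.6, 35.7 and 37.2 CPM in siControl, without overlap (log2 change -0.52 ± 0.12, edgeR adjusted p = 0.00545). In SAS the change was -0.01 ± 0.14 (adjusted p = 0.986). Its other start peak, annotated to NBR1, changed by -0.07 ± 0.12 in Cal33 and 0.11 ± 0.10 in SAS. The 5′ part of BRCA1 has a near-identical copy in the pseudogene BRCA1P1, and no source used here tells how reads shared by both were placed, so these levels are uncertain.

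BRIP1, a helicase partner of BRCA1 (chromosome 17, 61861990 to 61864070), held 15.5, 13.04, 14.1 and 15.7 CPM in Cal33 siITGA7 and 18.3, 25.2, 15.5 and 20.6 CPM in Cal33 siControl. The groups overlapped slightly, the log2 change was -0.40 ± 0.13 (edgeR adjusted p = 0.048), and with the replicate block the adjusted p was 0.0521. BARD1, the obligate partner of BRCA1 (chromosome 2, 214808955 to 214810432), fell in SAS. It held 28.0, 47.8, 25.6 and 28.3 CPM in SAS siITGA7 and 50.9, 44.1, 41.7 and 54.7 CPM in SAS siControl, where siITGA7 replicate 2 lay among the siControl libraries (log2 change -0.54 ± 0.15, adjusted p = 0.0131).

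BRCA2, the recombinase loader, held 15.4, 14.9, 14.04 and 16.5 CPM in Cal33 siITGA7 and 17.5, 19.8, 12.6 and 14.1 CPM in Cal33 siControl, with a log2 change of -0.04 ± 0.13 (adjusted p = 0.904). PALB2, which bridges BRCA1 and BRCA2, had the largest positive change in SAS, 0.17 ± 0.21 (adjusted p = 0.709). RAD52, a strand annealing factor, had -0.32 ± 0.12 in Cal33 (adjusted p = 0.0863) and -0.37 ± 0.13 in SAS (adjusted p = 0.0631) at its annotated start peak. With the replicate block the SAS change of RAD52 was -0.41 ± 0.13 and passed, with an adjusted p of 0.0447.

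Of the 8 start peaks of end joining, 1 fell in Cal33 and 2 in SAS. DCLRE1C, which encodes the nuclease Artemis (chromosome 10, 14953469 to 14954674), held 39.1, 41.0, 39.4 and 44.3 CPM in Cal33 siITGA7 and 62.8, 62.0, 47.5 and 53.1 CPM in Cal33 siControl. The groups did not overlap (log2 change -0.45 ± 0.12, edgeR adjusted p = 0.0138), and in SAS the change was -0.31 ± 0.15 (adjusted p = 0.202).

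XRCC4, the scaffold of the ligase complex (chromosome 5, 83076729 to 83078036), held 26.2, 20.6, 22.2 and 17.7 CPM in SAS siITGA7 and 35.5, 36.0, 29.3 and 32.9 CPM in SAS siControl (log2 change -0.66 ± 0.18, adjusted p = 0.00994). In Cal33 it held 28.5, 28.2, 29.6 and 32.2 CPM in siITGA7 and 38.2, 36.4, 36.6 and 32.8 CPM in siControl (log2 change -0.28 ± 0.11, adjusted p = 0.104). The groups did not overlap in either line, with siITGA7 lower in each, although the edgeR call was made in SAS alone.

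NHEJ1, the XRCC4-like factor (chromosome 2, 219159928 to 219161162), held 42.0, 38.4, 53.3 and 36.1 CPM in SAS siITGA7 and 53.9, 52.9, 56.8 and 58.6 CPM in SAS siControl. The groups overlapped slightly (log2 change -0.42 ± 0.14, edgeR adjusted p = 0.0354), and the adjusted p was 0.0692 with the replicate block. PRKDC, the catalytic kinase of end joining, held 77.4, 84.96, 80.1 and 83.1 CPM in Cal33 siITGA7 and 96.1, 96.4, 78.3 and 88.8 CPM in Cal33 siControl (log2 change -0.14 ± 0.12, adjusted p = 0.503), and in SAS it changed by -0.16 ± 0.12. XRCC5 and XRCC6, the Ku subunits that bind ends, were not called in either line.

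PARP1, the sensor of nicks, and POLQ, the polymerase of microhomology joining, were not called. PARP1 held 54.2, 36.5, 64.5 and 38.2 CPM in SAS siITGA7 and 53.9, 58.8, 56.3 and 56.5 CPM in SAS siControl, with siITGA7 libraries on both sides (log2 change -0.27 ± 0.13, adjusted p = 0.227). In Cal33 it changed by -0.06 ± 0.12 (adjusted p = 0.805). The 4 Fanconi anaemia genes, FANCA, FANCC, FANCD2 and FANCI, which act on crosslinks, ranged in log2 change between -0.24 and 0.06 in Cal33 and between -0.41 and 0.05 in SAS, and none was called.

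**Figure D3:**
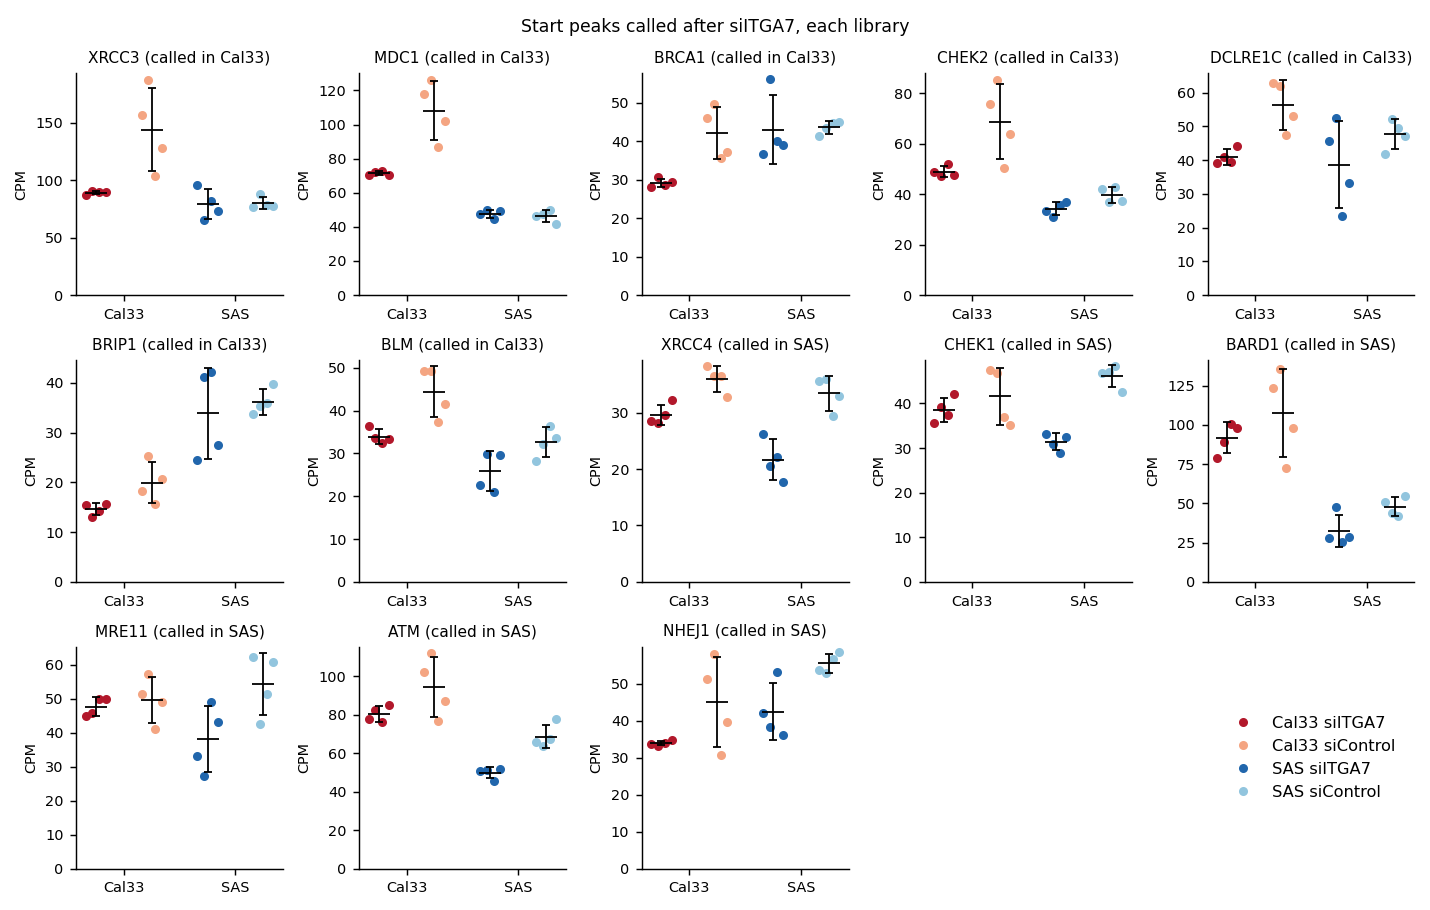
CPM in each library (y axis, scaled within each line) at the 13 start peaks called in Cal33 or SAS, with siITGA7 left of siControl in each line and the mean and SD in black. Peaks called in Cal33 show a wide spread of the 4 siControl libraries above a tight siITGA7 group, and in the other line most groups overlap.

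No start peak was called in both lines, but the difference between the lines was not called either. In the interaction contrast (Cal33 effect minus SAS effect) 0 of 48 start peaks and 0 of 59 tested peaks by the rule passed with edgeR, where 0.491% of all tested peaks were called higher and 0.27% lower (0.448% and 0.28% outside promoters, 0.693% and 0.223% at promoter-TSS peaks). With unadjusted p under 0.05 there were 12 and 9, and DESeq2 called 0 of either. Without Cal33 siControl replicate 3 edgeR called 2 in each set, all lower. The smallest p values were those of MRE11 (difference 0.57 ± 0.20, adjusted p = 0.156), XRCC3 (-0.53 ± 0.19, adjusted p = 0.158) and RAD50 (0.59 ± 0.21, adjusted p = 0.167). MDC1 had -0.53 ± 0.19 (adjusted p = 0.176) and CHEK1 0.56 ± 0.20 (adjusted p = 0.171). A fall called in 1 line is therefore not shown to be larger there.

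The calls differed in how much they leaned on single libraries. In Cal33, XRCC3, MDC1 and BRCA1 stayed called without any 1 library. CHEK2 was lost without siControl library 1 or 2, or without siITGA7 library 2, 3 or 4 (adjusted p 0.0515 to 0.0808), and DCLRE1C without siControl replicate 1 or siITGA7 replicate 2 or 3 (0.058 to 0.0725). BRIP1 and BLM were lost without any 1 library other than siControl replicate 3 (0.0606 to 0.18 and 0.0526 to 0.152). The count of 7 became 17 without siControl replicate 3, 3 without siControl replicate 1 or siITGA7 replicate 2 or 3, and 4 without siControl replicate 2 or siITGA7 replicate 4. In SAS, ATM and CHEK1 stayed called without any 1 library, MRE11 was lost without siITGA7 replicate 2 (0.144) and XRCC4 without siITGA7 replicate 4 (0.115). BARD1 was lost without siControl library 4, or without siITGA7 library 3 or 4 (0.0533 to 0.131), and NHEJ1 without siControl library 3 or 4, or without siITGA7 library 1, 2 or 4 (0.0529 to 0.249). The count of 6 was 3 without siITGA7 replicate 4.

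Sequencing runs and promoter weight moved with these values in Cal33. Cal33 siControl replicates 1 and 2, which had 2 sequencing runs each, held the highest CPM at XRCC3, MDC1, BRCA1, CHEK2 and DCLRE1C and the highest promoter-TSS shares of counts (46.4% and 47.1%). Replicates 3 and 4, with 1 run each, had 40.4% and 43.5%. Of the Cal33 siITGA7 libraries replicate 4 had 2 runs. Among the Cal33 libraries with 1 run (siITGA7 replicates 1 to 3, siControl replicates 3 and 4) none of the start peaks was called, and XRCC3 had a log2 change of -0.37 (adjusted p = 0.152), MDC1 -0.39 (0.116) and BRCA1 -0.33 (0.138). With the number of runs as a covariate all 7 calls stood. The part of sequencing runs in the calls was not tested beyond this.

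Scaling moved the median of all peaks by about 0.11 in Cal33 and 0.14 in SAS when TMM factors were taken from promoter-TSS peaks alone, which sets the median promoter near 0. Under it the median change of the 48 start peaks was -0.05 in Cal33, with 29 below 0, and -0.15 in SAS, with 31 below 0. With this scaling XRCC3 (-0.53), MDC1 (-0.45), BRCA1 (-0.39), CHEK2 (-0.33) and DCLRE1C (-0.32) stayed called in Cal33, and RBBP8 (0.40 at the upper start, adjusted p = 0.0464) and RNF168 (0.28, adjusted p = 0.0232) were called higher. In SAS only XRCC4 stayed called (-0.52, adjusted p = 0.0495), and CHEK1 (0.0582), MRE11 (0.0761), BARD1 (0.0791), ATM (0.087) and NHEJ1 (0.183) did not pass. Over all peaks 75.7% of the Cal33 calls and 89.7% of the SAS calls were higher with this scaling, against 49.2% and 57.5%. After thinning every library to the smallest, of 758590 counts in SAS, none of the 6 SAS calls remained (adjusted p 0.208 to 0.53).

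Within a line the start peaks differed widely in level. In Cal33 siControl the highest levels per kb of peak were at MDC1 (133 ± 21.4 CPM per kb, SD, n = 4), XRCC3 (120 ± 30.2) and BARD1 (72.8 ± 18.9), and the lowest at the upper MRE11 start (2.21 ± 0.365), RAD51C (6.38 ± 0.797) and RAD51B (8.13 ± 0.771). The median start peak had 24.1 CPM per kb. In SAS siControl XRCC3 (67.2 ± 4.39), MDC1 (57.0 ± 4.21) and NBN (52.3 ± 2.86) were highest and RAD51B (10.0 ± 2.31), RBBP8 at its lower start (10.1 ± 1.33) and the upper MRE11 start (10.2 ± 1.64) lowest, around a median of 25.0. MDC1 and XRCC3 did not differ beyond their spread in Cal33, nor did the 3 lowest in SAS. Across the 48 peaks the siControl levels of the lines had a Pearson's r of 0.78 and a Spearman's rho of 0.76.

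The comparison of Cal33 siControl with SAS siControl depends on scaling more than the siRNA comparisons do. The copy number of the lines is not known here, and differences between them are not separated from it under any scaling. With TMM over all 16 libraries 38 start peaks were called higher in Cal33 and 1 lower, where 36.0% of all tested peaks were called higher and 42.2% lower, and 54.8% and 27.0% of promoter-TSS peaks. The median log2 difference was 0.78 at the start peaks and 0.51 over all promoter-TSS peaks. With total counts as library size the median of promoter-TSS peaks was -0.13, and 20 start peaks were called higher and 9 lower. Among peaks with a mean of at least 50 counts, 14 of 44 start peaks were called higher and 17 lower. The sign of 10 start peaks turned under total counts or promoter TMM, and 20 were called higher, and 1 lower, under all 3 scalings.

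The 5 largest differences at start peaks kept their direction and call under each of these scalings. RBBP8 at its lower start peak (chromosome 18, 22913042 to 22914286) had 74.6, 81.7, 65.6 and 82.3 CPM in Cal33 siControl and 7.49, 9.88, 8.16 and 9.14 CPM in SAS siControl on the scale of all 16 libraries. The lines were far apart, with a log2 difference of 3.15 ± 0.15 (edgeR adjusted p = 3.05e-39), and of 2.50 with total counts. The others were MDC1 (2.07 ± 0.12), BARD1 (2.01 ± 0.14), PALB2 (1.96 ± 0.14) and XRCC5 (1.88 ± 0.16). RBBP8 at its upper start had a log2 difference of 0.55 ± 0.16, and -0.09 with total counts, so its 2 starts stood differently between the lines.

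The start peak called lower in Cal33 was the upper MRE11 start (chromosome 11, 94512165 to 94513611), with 4.02, 4.64, 4.2 and 3.08 CPM in Cal33 siControl and 8.74, 9.39, 9.83 and 12.6 CPM in SAS siControl (log2 difference -1.36 ± 0.22, edgeR adjusted p = 2e-08). The main MRE11 start had 0.69 ± 0.13 with TMM and 0.04 with total counts. The next lowest, RAD51D (-0.10 ± 0.16), RAD51C (-0.05 ± 0.18), BRIP1 (-0.05 ± 0.14) and RAD50 (-0.01 ± 0.13), were not called with TMM. With total counts RAD51D (-0.74), BRIP1 (-0.69), RAD51C (-0.68) and RAD50 (-0.65) were called lower.

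**Figure D4:**
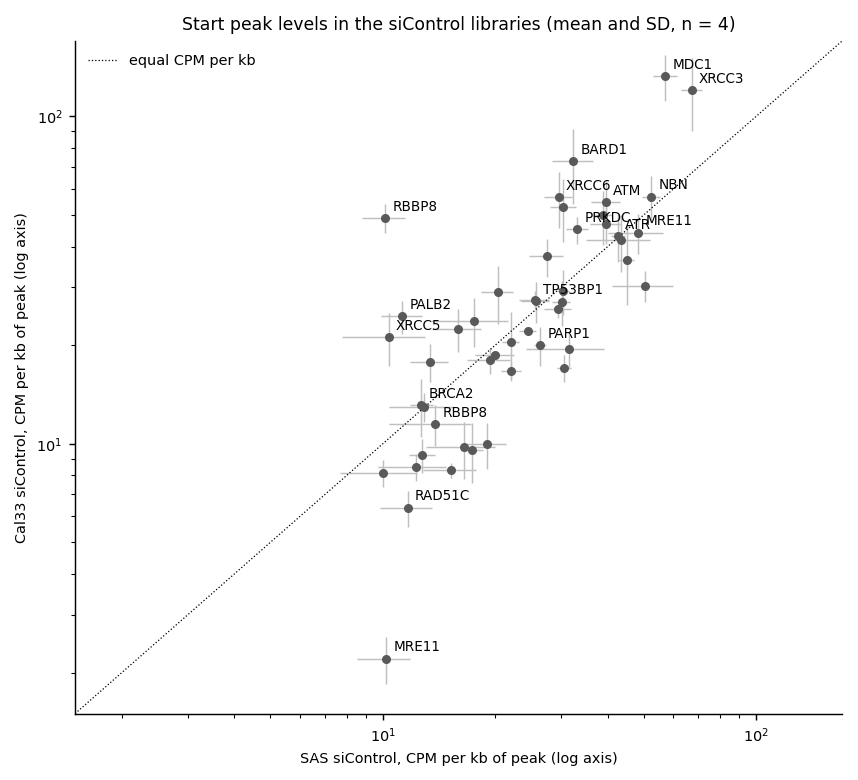
Level of each start peak in Cal33 siControl (y axis) against SAS siControl (x axis), in CPM per kb of peak on log axes with CPM scaled within each line, as mean and SD of 4 libraries. MDC1 and XRCC3 are high in both lines, the lower RBBP8 start lies far above the dotted line of equal CPM per kb and the upper MRE11 start far below it. Since each line has its own scale, the dotted line does not mark equal accessibility in the lines.

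The peaks with the most extreme differences between the lines lay away from the starts, although a smaller share of such peaks was called. Of 105 such peaks 31 had enough counts to be tested in Cal33, 10 in SAS and 38 in the fit of all 16 libraries. In that fit the counts of 1 line were enough for a peak to be tested. A peak near 0 in the other line then shows a large difference, so the place of these peaks is not read as a result. By siControl level per kb the highest in Cal33 were a promoter-TSS peak inside XRCC3 (32.8 ± 5.14 CPM per kb) and intron peaks of FANCC (27.3 ± 2.71) and XRCC5 (17.7 ± 3.79). In SAS they were an intron peak of RNF8 (29.7 ± 5.11), the same XRCC3 peak (26.6 ± 6.03) and an intron peak of XRCC4 (22.3 ± 5.04). Some held few counts in siControl of 1 line. An exon peak of PALB2 (chromosome 16, 23629301 to 23630132) had 9.65, 10.7, 16.1 and 12.5 CPM in Cal33 siControl and 0.749, 0.494, 0.927 and 0.247 CPM in SAS siControl (log2 difference 4.23 ± 0.32, edgeR adjusted p = 4.01e-24). An exon peak of ATM (chromosome 11, 108289737 to 108290157) had 3.01, 1.78, 3.04 and 3.3 CPM in Cal33 siControl and 0.499, 0.494, 0.185 and 0.494 CPM in SAS siControl (2.81 ± 0.50, adjusted p = 2.8e-07). These ATM values rest on 15, 5, 21 and 15 counts in Cal33 siControl and 2, 1, 1 and 2 in SAS siControl. In siITGA7 the ATM peak had 2.79, 2.13, 2.93 and 2.1 CPM in Cal33 and 1.75, 0.937, 0 and 3.54 in SAS, scaled within each line.

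The reverse was seen at a promoter-TSS peak inside NHEJ1 (chromosome 2, 219125002 to 219125606), with 0.603, 0.357, 0 and 0 CPM in Cal33 siControl and 4.99, 4.45, 5.75 and 5.93 CPM in SAS siControl (log2 difference -4.53 ± 0.48, edgeR adjusted p = 3.17e-15). A promoter-TSS peak in the 3′ part of RAD52 (chromosome 12, 914050 to 915108) had 1.61, 1.07, 0.434 and 0.66 CPM in Cal33 siControl and 7.24, 6.92, 5.19 and 6.67 CPM in SAS siControl (-2.81 ± 0.34). Intron peaks of RAD51B were higher in Cal33 at 2.63 ± 0.29 and 2.40 ± 0.34, and peaks of ATR (-2.75 ± 0.55), NBN (-2.28 ± 0.55) and RAD51D (-1.91 ± 0.46) were lower in Cal33. Of the 38 tested peaks by the rule that lie away from a start, 10 were called higher in Cal33 and 14 lower. At start peaks it was 38 and 1 of 48. Some of the 38 away from a start are promoter-TSS peaks. Of the 37 tested peaks by the rule outside the promoter-TSS class, 14 were called higher (37.8%) and 11 lower (29.7%). Among all peaks outside promoters 32.0% were called higher and 45.5% lower. Over all 59 tested peaks by the rule, 27 were called higher and 14 lower with TMM, but 18 higher and 28 lower with total counts and 19 higher and 28 lower with promoter TMM. The 10 peaks named for the largest differences, RBBP8 included, kept their call and direction in every alternative that tested them.

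RAD51B, a recombinase paralogue gene with very long introns, added calls once peaks were taken by gene body whatever their identifier. It held 65 peaks, of which 34 were tested in Cal33, and 3 rose and 3 fell. Over all peaks tested in Cal33 4.52% were called higher and 4.67% lower, and the difference from these shares was not tested. At 724 kb from the RAD51B start (chromosome 14, 68546924 to 68549208) an intron peak held 25.3, 27.5, 27.9 and 27.1 CPM in Cal33 siITGA7 and 19.4, 14.9, 20.2 and 20.3 CPM in Cal33 siControl, with every siITGA7 library above (log2 change 0.50 ± 0.12, edgeR adjusted p = 0.00642). Peaks at 754 kb (0.49 ± 0.14, adjusted p = 0.0227) and 409 kb (0.43 ± 0.13, adjusted p = 0.0274) also rose.

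The RAD51B peaks that fell stood among them. At 853 kb the peak held 34.4, 40.2, 32.6 and 38.6 CPM in Cal33 siITGA7 and 53.2, 54.2, 39.0 and 46.9 CPM in Cal33 siControl, groups that overlap slightly (-0.40 ± 0.12, adjusted p = 0.0343). The peak at 368 kb had -0.78 ± 0.21 (adjusted p = 0.018) and that at 846 kb -1.15 ± 0.35 (adjusted p = 0.032). The 846 kb peak was low, with means of 0.983 CPM in Cal33 siITGA7 and 2.14 in Cal33 siControl and groups that overlap. In SAS 17 RAD51B peaks were tested and 0 called. Other Cal33 peaks in gene bodies rose at RNF168 (1.38 ± 0.35), RAD52 (1.09 ± 0.31) and FANCC (0.96 ± 0.27), and in SAS 1 rose in BRIP1 (1.02 ± 0.28, adjusted p = 0.0109). The Cal33 levels were low. Mean CPM in siITGA7 and siControl were 2.05 and 0.837 at RNF168, 2.61 and 1.31 at RAD52, and 3.51 and 1.76 at FANCC. The groups overlapped at RAD52. In all, 6 of 90 such peaks away from starts were called higher and 3 lower in Cal33, where 5.19% and 3.4% of all peaks outside promoters were, and 1 of 37 was called higher in SAS, where 5.07% were. These counts are near or below the background. These peaks carry identifiers other than that of the gene whose body holds them.

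**Figure D5:**
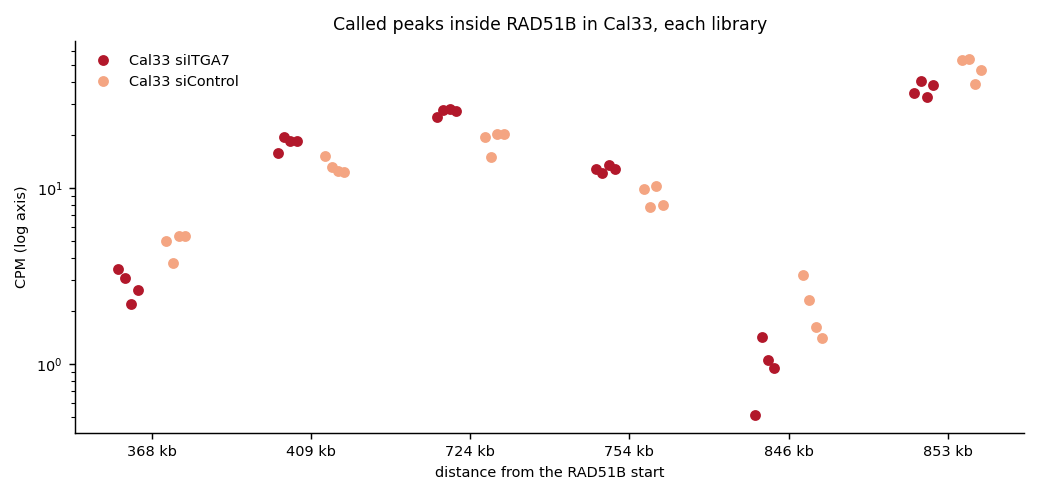
CPM in each Cal33 library (y axis, log scale) at the 6 called peaks inside RAD51B, ordered by distance from the gene's start (x axis, kb), with siITGA7 left of siControl. The peaks at 409, 724 and 754 kb are higher and those at 368, 846 and 853 kb lower in siITGA7.

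Genes of other repair pathways were set beside these. Of 68 start peaks of these genes 11 fell and 0 rose in Cal33 (16.2%), and 4 of 67 tested fell and 0 rose in SAS (5.97%), with median log2 changes of -0.16 and -0.21. The share in SAS lies below the 7.28% of all promoter-TSS peaks, and the difference from the 12.5% above was not tested. In Cal33 the falls were spread over base excision and single-strand break repair (4 of 16), other signalling genes (3 of 23), nucleotide excision (2 of 13), mismatch repair (1 of 6) and other Fanconi and crosslink genes (1 of 10). In SAS they were 1 of 16, 1 of 22, 2 of 13, 0 of 6 and 0 of 10.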

How the data were processed

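ATAC-seq libraries of 2 lines and 2 siRNA treatments (16 in all, 4 per group) were analysed from the authors' tables. Raw counts per peak over a common set of 164980 peaks were deposited by the authors, per the file headers, beside a normalized signal, in which each library's counts are rescaled by a constant. Tests used the raw counts and left the authors' signal aside. For the tools, bcl2fastq 2.20.0 is named per the submitters' processing notes, with builds hg38 and GRCh38. Aligner, peak caller, counter, read shift and treatment of duplicate reads: not given in the sources used here. Counts may hold PCR copies. Peaks sit in one set for both lines, so a peak open in 1 line is counted in the other too.

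The annotation gives each peak a class and an Ensembl identifier without a symbol. Symbols came from RefSeq (GRCh38.p14) by comparing positions, for 13921 of 45291 identifiers. Start peaks overlap a window of 250 bases before to 50 after a RefSeq start, or the gene's 5′ end where no window is given. Coordinates are those of the annotation, counted from 1.

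Each line was fitted with edgeR 4.0.16 (R 4.3.3; TMM factors, default filter on low counts, robust quasi-likelihood test, siITGA7 over siControl), and the line difference and the siControl comparison in a fit of all 16 libraries. The p values were adjusted after Benjamini and Hochberg over every peak tested, and calls use 0.05. The method was tested on simulated data. Alternatives were DESeq2 1.42.0, other scalings and filters, a replicate block, thinning, all 16 libraries in 1 fit, sequencing runs, leaving out each library and a match by gene body. Depth is given per group in the text; no 2 libraries were identical (highest correlation 0.954).

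The labels tag replicates 1 to 4 as batches, so the numbers pair siITGA7 with siControl libraries by label. The deviations of same-numbered libraries had correlations of -0.09, 0.00036, -0.05 and -0.13 in Cal33 and 0.0062, 0.0018, -0.0023 and -0.03 in SAS.

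Members and gene lists were chosen with earlier results of these data known. Named peaks are those called in a line or in the line difference, the 3 highest and lowest changes and levels, the 5 largest line differences in each direction, and ATM, ATR, PRKDC, BRCA1, BRCA2, TP53BP1 and PARP1; other values named in the text were chosen after they were seen.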

Additional observations from a re-analysis of the deposited data

Results flagged for a closer look

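At 48 start peaks the highest or lowest of the 4 libraries of each group was set against the other 3, 192 groups in all, and 7 stood apart by Dixon's 95% criterion; chance gives about 1 in 20 groups. SAS siITGA7 replicate 2 was high at BRCA1 (56.2 CPM, others 36.7 to 40.01) and at BARD1 (47.8 CPM, others 25.6 to 28.3). SAS siITGA7 replicate 3 was low at ATM (45.6 CPM, others 50.7 to 51.6). SAS siControl replicate 3 was high at RAD51C (16.6 CPM, others 12.1 to 12.5), and SAS siControl replicate 2 at XRCC3 (88.1 CPM, others 77.0 to 78.7). Cal33 siITGA7 replicate 4 was high at RAD51D (10.9 CPM, others 7.8 to 8.06), and Cal33 siITGA7 replicate 1 was low at XRCC6 (68.5 CPM, others 78.0 to 79.3). No start peak was called in the difference between the lines.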

How the results depend on the processing

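Peaks called by the nearest-promoter rule numbered 4 in Cal33, 7 with a mean of at least 50 counts, 0 with the libraries of 1 sequencing run, 16 with peaks taken by start or gene body and 2 to 8 with 1 library left out. In SAS the 2 calls became 1 with promoter TMM, 12 without a filter, 0 after thinning, 7 by start or gene body, and 2 to 3 with 1 library left out. At start peaks the 7 Cal33 calls became 0 with the 1-run libraries and 3 to 17 with 1 library left out; the 6 SAS calls became 1 with promoter TMM, 18 without a filter, 0 after thinning, and 3 to 7 with 1 library left out. For the line difference, 0 by the rule became 1 with promoter TMM (XRCC3), without a filter (RIF1) or with at least 50 counts, and 0 to 2 with 1 library left out. At start peaks 0 became 1 with promoter TMM, 2 with at least 50 counts (XRCC3 and MDC1), and 0 to 2 with 1 library left out. Between the siControl groups 41 rule peaks became 70 without a filter, 15 with at least 50 counts, 61 with DESeq2 and 41 to 50 with 1 library left out, and total counts turned the majority from higher (27 of 41) to lower (28 of 46). The 39 start peaks were 39 to 40 with 1 library left out, but 29 with total counts, 30 with promoter TMM and 31 with at least 50 counts, 17 of them lower. With the replicate block the rule peaks called were 3 in Cal33 and 3 in SAS, and at start peaks 5 and 6: BLM, BRIP1 and NHEJ1 were lost, RAD52 was gained in SAS, and no other start peak changed its call. The causes of these shifts were not tested. Values below about 1 CPM in SAS rest on few counts.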
